A study of Mus musculus with 4 samples.

Results

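Replication-dependent histone genes were examined in AGO2 eCLIP data from newborn mouse brain. AGO2 is the Argonaute protein that carries microRNAs (miRNAs) to their target RNAs, and eCLIP sequences the RNA crosslinked to a protein after its immunoprecipitation (IP). The genes were taken by name: every protein-coding gene of the GENCODE mouse annotation (release 21, mm10) whose symbol starts with Hist1h, Hist2h, Hist3h or Hist4h. This gave 67 of 22028 protein-coding genes, of which 6 encode linker histone H1, 18 H2A, 18 H2B, 12 H3 and 13 H4. Most of them (54) lie on chromosome 13, 10 on chromosome 3, 2 on chromosome 11 and 1 on chromosome 6. A cluster of reads was assigned to a gene when its midpoint fell in an exon of the gene on the same strand. By this rule 14 of 46860 clusters of the wild-type IP and 26 of 86106 clusters of the other IP lay in histone genes.

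The 4 samples were an AGO2 IP and an input of wild-type C57BL/6 whole brain and the same pair from brain labelled FMR1 ko, also on a C57BL/6 background, all at postnatal day 0. FMR1 encodes FMRP, an RNA-binding protein, and the question in the title of the study is how FMRP affects the access of AGO2 to miRNA sites. Brains were flash frozen and the IP used the anti-AGO2 antibody EAG009; the allele, sex and number of animals per library were not given in the sources used here. Fmr1 RNA had reads in both pairs of libraries, so the second pair is called knockout-labelled. Each genotype had 1 IP library, so nothing here was replicated and every contrast of genotypes sets 1 library against 1 other.

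Replication-dependent histone mRNAs are made mainly in S phase, when newly copied DNA must be packaged. Core histones H2A, H2B, H3 and H4 form the nucleosome, and linker histone H1 binds the DNA that enters and leaves it. In general these mRNAs are short, lack introns and end in a conserved stem-loop, bound by the stem-loop binding protein SLBP, in place of a poly(A) tail. Some annotated transcripts used here are longer, such as that of Hist1h1d (7425 bases), or spliced, such as that of Hist1h2bc. Replacement histones such as H3.3 and H1.0 are instead made throughout the cell cycle from polyadenylated mRNAs.

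Of the histone genes, 10 had a cluster in the wild-type IP and 19 in the knockout-labelled IP, 5 of them in both. Over all protein-coding genes, 30.9% had a cluster in the wild-type IP and 39% in the knockout-labelled IP. A histone cluster was found in either library for 24 genes and in neither for 43, against 43.6% of all protein-coding genes with one in either. By class, a cluster in either library was found for 5 of 6 H1 genes, 7 of 18 H2A genes, 7 of 18 H2B genes, 3 of 12 H3 genes and 2 of 13 H4 genes. Depth differed too: relative to the wild-type IP the other IP had 2.28 times the reads, and the inputs had 6.34 times (wild type) and 1.92 times (knockout-labelled) the reads of their IPs.

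The AGO2 clusters with most reads were those of the H1 genes, and the sequences below show where they fell. They lay near the start of the coding sequence and again in its later part, which encodes the lysine-rich C-terminal tail of H1. Coding parts of 5 knockout-labelled clusters are printed, from the H1 genes with most IP reads, from the mm10 reference, 5′ to 3′ on the transcript strand. Capitals mark bases that also lay in a cluster of the wild-type IP.
Hist1h1d, start, chr13:23555090-23555222, plus strand: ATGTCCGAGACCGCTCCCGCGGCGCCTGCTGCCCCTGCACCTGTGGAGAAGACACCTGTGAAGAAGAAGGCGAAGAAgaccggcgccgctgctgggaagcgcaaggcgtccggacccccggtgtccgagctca
Hist1h1d, tail, chr13:23555563-23555593, plus strand: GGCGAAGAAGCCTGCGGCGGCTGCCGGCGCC
Hist1h1e, start, chr13:23622442-23622476, minus strand: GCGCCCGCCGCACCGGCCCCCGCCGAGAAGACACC
Hist1h1c, start, chr13:23738849-23738972, plus strand: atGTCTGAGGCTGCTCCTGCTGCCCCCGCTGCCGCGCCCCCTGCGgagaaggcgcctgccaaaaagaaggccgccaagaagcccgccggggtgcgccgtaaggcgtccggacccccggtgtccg
Hist1h1b, tail, chr13:21780080-21780157, minus strand: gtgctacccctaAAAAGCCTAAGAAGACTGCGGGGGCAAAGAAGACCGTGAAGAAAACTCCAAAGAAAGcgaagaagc

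In the knockout-labelled IP each of Hist1h1a, Hist1h1b, Hist1h1c, Hist1h1d and Hist1h1e had exactly 1 start cluster and 1 tail cluster. In the wild-type IP, Hist1h1d and Hist1h1e had both, Hist1h1b only a tail cluster and Hist1h1c only a start cluster. Counting from the first base of the start codon, the 8 start clusters of both libraries lay within bases -8 to 133 and the 9 tail clusters within bases 384 to 507. The coding sequences are 639 to 672 bases long in these 5 genes, so the last part of the tail had no cluster. Tail clusters had a median of 65% A and G and start clusters 49.7%; as background, the lysine codons AAA and AAG hold only these bases. The median GC content was 59.0% in tail and 68.7% in start clusters, against 55.2% in coding clusters of other genes in the knockout-labelled IP. Hist1h1t, the testis-specific H1 gene, had no cluster in either library.

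**Figure D1:**
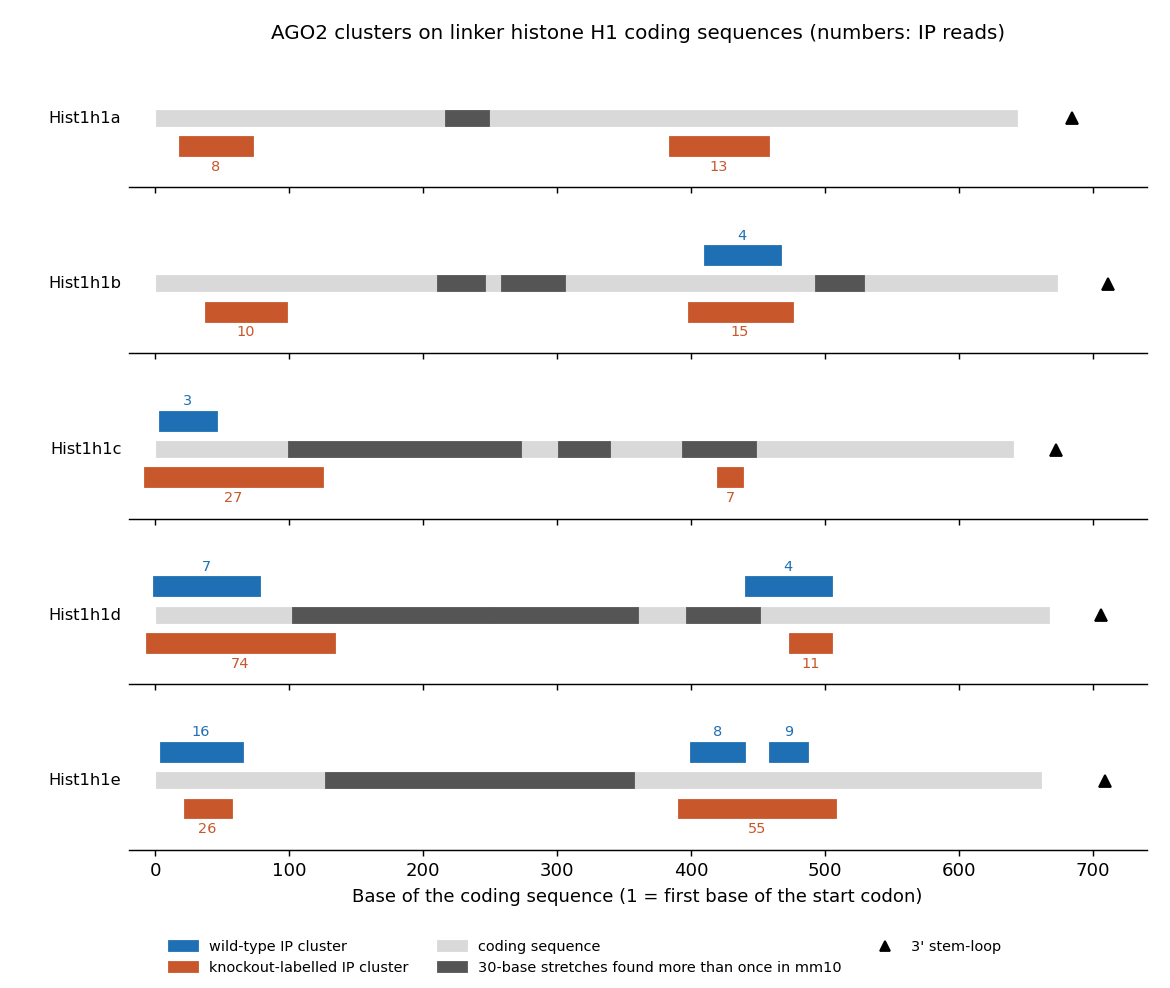
Clusters of the wild-type IP (above each line) and the knockout-labelled IP (below) along the coding sequences of 5 H1 genes, in bases from the start codon, with IP reads beside each cluster. Dark stretches hold 30-base sequences found more than once in the mm10 chromosomes and triangles mark the 3′ stem-loop; clusters sit within bases -8 to 133 and 384 to 507 in every gene that has them.

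The coding sequences of H1 genes resemble each other, so short reads from some stretches can match several places. Of all 30-base stretches of the coding sequence, the share found more than once in the mm10 chromosomes was 0.489% in Hist1h1a, 4.82% in Hist1h1b, 29.2% in Hist1h1c, 35.0% in Hist1h1d and 30.9% in Hist1h1e. The longest repeated run covered bases 100 to 272 in Hist1h1c, 103 to 251 in Hist1h1d and 127 to 272 in Hist1h1e. These runs begin within the knockout-labelled start clusters of Hist1h1c and Hist1h1d and after all other start clusters of these 3 genes. In Hist1h1a and Hist1h1b, 3 of 438 and 31 of 447 stretches clear of clusters were repeated. The middle of their coding sequence had no cluster, but these genes had few reads. Hist1h1a had 0 (wild type) and 21 (knockout-labelled) IP reads and Hist1h1b 4 and 25. How reads with several matches were treated was not given in the sources used here, and the part of such reads in these values was not tested.

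The H1 genes held most of the histone reads. In the wild-type IP, 51 of 82 reads in histone clusters were on H1 genes (62.2%, exact 95% binomial interval 50.8% to 72.7%), and in the knockout-labelled IP 246 of 335 (73.4%, 68.4% to 78.1%). H1 genes also held most of the recovered input reads in these clusters, 105 of 162 in wild type and 143 of 216 in the knockout-labelled library. The IP shares alone thus do not show a preference of AGO2 for H1. Read counts were recovered from the authors' scores. The knockout-labelled totals leave out the Hist1h2ai cluster, whose reads were not recovered. This overstates the H1 shares of that library and understates its core level. In wild type, neighbouring clusters of Hist1h2bj and of the Hist1h1e tail can count a read more than once. All intervals cover counting error only. Per 1000 coding bases, H1 genes had 13.0 IP reads in the wild-type library against 1.34 for the core histones. In the knockout-labelled library the levels were 62.9 for H1 and 3.85 for the core histones. These levels are not scaled to depth, which was 2.28 times as high in the knockout-labelled IP. The core levels also count reads of UTR clusters. In wild type these were on Hist1h2bc (3 reads), Hist1h3g (4) and Hist1h4d (8), and in the knockout-labelled library on Hist1h2bk (3). Such a level rests on the clusters that were called, and in whole brain fewer cells of a type and less RNA per cell cannot be told apart.

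**Figure D2:**
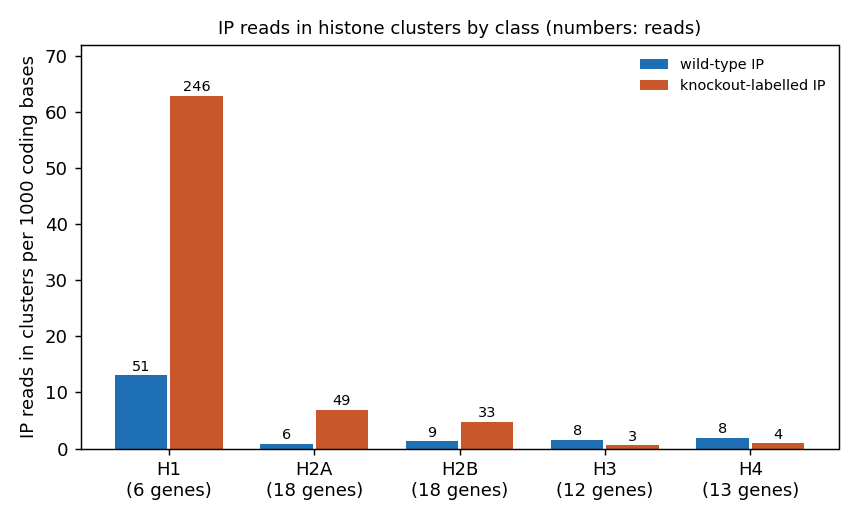
IP reads in histone clusters per 1000 coding bases for the 5 histone classes (vertical axis, linear from 0), with the wild-type and the knockout-labelled IP side by side and read numbers above the bars; bars are single libraries and have no error bars. H1 stands at 13.0 and 62.9, and each core class is below 7 in both libraries. Reads of UTR clusters are included, and the knockout-labelled Hist1h2ai cluster, whose reads were not recovered, is left out. Levels are not scaled to depth, which was 2.28 times as high in the knockout-labelled IP.

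Set against input, no histone cluster reached the limits for enrichment, a -log10 p of at least 3 and a log2 of IP over input of at least 3. The count was 0 of 14 in the wild-type IP, where 27.4% of all clusters in protein-coding exons passed, and 0 of 26 in the knockout-labelled IP, where 3.62% passed. The -log10 p are the authors' own, from reads of 1 IP and 1 input. With a log2 limit of 1 the counts were 1 of 14 (29.1% over all exonic clusters) and 3 of 26 (5.58%), all on H1 genes. The median log2 over input of the histone clusters was 1.85 in wild type, beside 3.25 for all coding clusters and 4.25 for all exonic clusters. In the knockout-labelled IP it was 1.35, beside 1.35 for coding and 1.52 for exonic clusters. Medians were also taken over wild-type clusters with at least 20 reads in IP and input together. They were 1.77 for histones (7 clusters), 1.44 for all coding and 1.91 for all exonic clusters. The order thus turned against coding clusters and not against exonic ones, on few histone clusters. In the knockout-labelled IP the medians at that depth were 1.89 for histones (9 clusters), 0.94 for coding and 1.08 for exonic clusters. There clusters below input gave no reads and are left out. Most histone clusters at this depth were on H1 genes in both libraries.

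Hist1h1d had the most reads of any histone cluster. Its start cluster in the knockout-labelled IP (chr13:23555084-23555222) held 74 IP and 29 input reads, a log2 over input of 2.29 (1.65 to 2.96) and a -log10 p of 14.7. Of 25763 coding clusters with recovered reads in that library, 82 (0.318%) held as many IP reads. In wild type the start cluster (chr13:23555089-23555166) held 7 IP and 13 input reads, with a log2 of 1.77 (0.21 to 3.20). Both intervals lay above 0 and overlapped widely. The tail clusters stood lower, at 4 IP and 15 input reads in wild type (0.76, -1.29 to 2.41) and 11 and 13 in the other library (0.70, -0.60 to 1.97), and both intervals included 0.

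Hist1h1e had a higher log2 over input on its tail than at its start in the knockout-labelled library, whereas the wild-type values did not separate them. In the knockout-labelled IP its tail cluster held 55 IP and 16 input reads, a log2 over input of 2.72 (1.90 to 3.62), with a -log10 p of 13.3. The start cluster (chr13:23622442-23622476) held 26 IP and 35 input reads, with a log2 of 0.51 (-0.28 to 1.28), an interval clear of that of the tail. In the wild-type IP the start cluster (chr13:23622434-23622494) was the highest histone cluster, with 16 IP and 18 input reads, a log2 of 2.49 (1.43 to 3.55) and a -log10 p of 5.57. The wild-type tail carried 2 clusters, with 8 IP and 15 input reads (1.76, 0.31 to 3.09) and 9 and 13 (2.13, 0.73 to 3.47), whose intervals overlap that of the start. The intervals of start and tail were thus apart in the knockout-labelled library alone.

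Hist1h1c had a start cluster in both libraries. In wild type (chr13:23738851-23738893) it held 3 IP and 21 input reads, which put it below input at a log2 of -0.14 (-2.53 to 1.60). In the knockout-labelled library (chr13:23738841-23738972) it held 27 IP and 14 input reads, at 1.89 (0.91 to 2.93) and a -log10 p of 4.38. The intervals overlap. Its tail cluster, seen in the knockout-labelled library alone, held 7 IP and 7 input reads (0.94, -0.80 to 2.68) on bases that are also present in another gene.

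Hist1h1a and Hist1h1b had fewer reads. Hist1h1b held 15 IP and 7 input reads on its tail in the knockout-labelled library (2.04, 0.66 to 3.57) and 10 and 5 near its start (1.94, 0.26 to 3.84). Its wild-type tail cluster held 4 IP and 10 input reads (1.34, -0.79 to 3.14). Hist1h1a, without a cluster in wild type, held 8 IP and 3 input reads near its start (2.35, 0.30 to 4.90) and 13 and 14 on its tail (0.83, -0.38 to 2.03) in the knockout-labelled library. For these genes no cluster reached a -log10 p of 3.

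**Figure D3:**
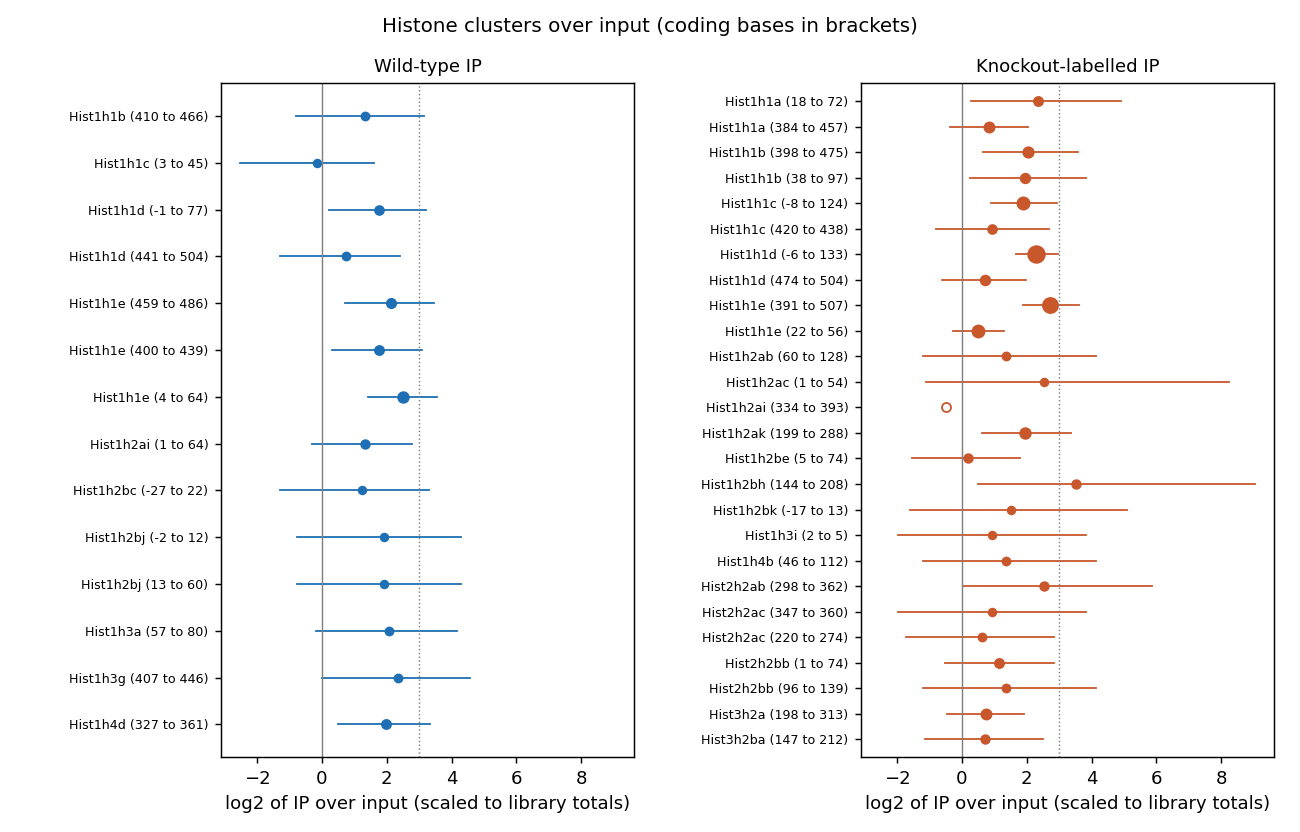
Log2 of IP over input for each histone cluster (horizontal axis) in the wild-type IP (left) and the knockout-labelled IP (right), labelled with gene and coding bases; points grow with IP reads, lines are exact 95% intervals for counting error, and the open point is a cluster whose reads could not be recovered. The dotted line marks the log2 limit of 3, passed only by Hist1h2bh at 3.52 on 6 IP reads; the narrowest intervals are those of Hist1h1d and Hist1h1e.

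Core histone clusters were small, at 3 to 8 IP reads in the wild-type library and, where reads were recovered, 3 to 16 in the other. H2A genes, whose product pairs with H2B at the nucleosome surface, had 1 wild-type cluster, on Hist1h2ai, and 8 knockout-labelled clusters, on Hist1h2ab, Hist1h2ac, Hist1h2ai, Hist1h2ak, Hist2h2ab, Hist2h2ac and Hist3h2a. The largest was that of Hist1h2ak (chr13:21753540-21753629), with 16 IP and 8 input reads, a log2 over input of 1.94 (0.63 to 3.37) and a -log10 p of 2.76. Hist3h2a held 13 IP and 15 input reads (0.73, -0.46 to 1.90), in a stretch that is also annotated as an exon of Trim17. Hist1h2ai was the only core histone gene with a cluster in both libraries, at the start of its coding sequence in wild type (6 IP and 15 input reads, 1.34) and at its end in the other library, where it lay below input (-0.48, reads not recovered).

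H2B genes had 3 wild-type clusters, on Hist1h2bc and Hist1h2bj, and 6 knockout-labelled ones, on Hist1h2be, Hist1h2bh, Hist1h2bk, Hist2h2bb and Hist3h2ba. Hist1h2bh (chr13:23543145-23543209) had the highest log2 over input of any histone cluster, 3.52, from 6 IP reads against an input of at most 1 read. Its interval ran from 0.48 to 9.05 and its -log10 p was 2.10, short of the limit. H3 genes had clusters of 3 or 4 reads on Hist1h3a and Hist1h3g in wild type and on Hist1h3i in the other library. H4 genes had 1 cluster in each library, with 8 reads on Hist1h4d in wild type and 4 on Hist1h4b in the knockout-labelled IP. The clusters of H3 and H4 genes were all on different genes in the 2 libraries. Of all histone genes with a cluster, 19 of 24 had it in 1 library only, and of all protein-coding genes with one 39.7% did. The genes were not matched on reads or on clusters per gene, so no histone trait is read from these shares.

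Core histone coding sequences are more repeated than those of H1. In the median core gene with a cluster, 78.5% of 30-base coding stretches occurred more than once in the chromosomes, and in the median core gene without one 88.1%. Within H2A these medians were 72.6% and 100%, and within H2B 83.0% and 88.1%. Genes without a cluster thus had the higher median share of repeated sequence, whose part in the counts was not tested.

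Most histone clusters lay in coding sequence, 11 of 14 in the wild-type IP (78.6%, 49.2% to 95.3%) and 25 of 26 in the knockout-labelled IP (96.2%, 80.4% to 99.9%). Over all exonic clusters the shares were 56.4% and 67.1%, the first of which lies within the histone interval. Where any overlap with a UTR was given precedence, the histone shares were 64.3% and 84.6%, beside 47.4% and 55.9%. The others were a 5′ UTR cluster on each of Hist1h2bc (wild type) and Hist1h2bk (knockout-labelled) and 3′ UTR clusters on Hist1h3g and Hist1h4d (wild type). The 3′ stem-loop, a hairpin of 6 base pairs around a loop of 4 bases, was found within 150 bases after the stop codon in 62 of 67 genes, at 22 to 59 bases (median 32). Of 21685 other protein-coding genes, 308 (1.42%) held such a hairpin in the same window. No hairpin was found in Hist1h2an, Hist1h2bp, Hist1h2bq, Hist1h2br and Hist2h2be. For each gene only the transcript with the longest coding sequence was searched. Hist1h2bp has 2 annotated transcripts and Hist1h2bq and Hist1h2br 3 each, so a hairpin after another stop codon could be missed. The hairpin of Hist1h1d was shared by 38 genes, among them 5 of the 6 H1 genes, and that of Hist1h4d by 8 genes, all H4.

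Few of the assigned clusters reached the stem-loop. It was overlapped by 2 of 14 wild-type clusters (14.3%, 1.78% to 42.8%), those of Hist1h3g and Hist1h4d. Of the knockout-labelled clusters 0 of 26 overlapped it, which allows a share of up to 13.2%. However, only 45 of the 62 hairpins lay wholly within an annotated exon. A cluster with its midpoint outside the annotated exons was not assigned to a gene. Clusters on the other hairpins could thus be missed, which can also raise the share in coding sequence. The hairpin of Hist1h1d, the gene with most reads in the knockout-labelled IP, is shown from mm10 with the stem in capitals. Those of the overlapped genes, chosen after their values were seen, are shown likewise.
Hist1h1d, chr13:23555787-23555802, plus strand: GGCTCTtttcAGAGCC
Hist1h3g, chr13:23535889-23535904, plus strand: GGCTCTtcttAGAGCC
Hist1h4d, chr13:23581950-23581965, plus strand: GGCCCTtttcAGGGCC
The Hist1h3g cluster (chr13:23535852-23535891) ended at the first bases of the stem, with 4 IP and 5 input reads (2.34, 0.01 to 4.56). The Hist1h4d cluster (chr13:23581928-23581962) covered most of the hairpin, with 8 IP and 13 input reads (1.96, 0.49 to 3.34).

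Matches to miRNA seeds were few. A seed is bases 2 to 8 of a miRNA, which pair with the target, and 7-base matches to let-7 (CTACCTC), miR-9 (ACCAAAG), miR-15/16 (TGCTGCT) and miR-30 (TGTTTAC) were sought on the transcript strand. They were present in 2 of 14 wild-type clusters (14.3%, 1.78% to 42.8%) and in 3 of 26 knockout-labelled clusters (11.5%, 2.45% to 30.2%). In coding sequence alone the counts were 1 of 11 (9.09%) and 3 of 25 (12%), and coding clusters of other genes held one in 5.78% (wild type) and 4.79% (knockout-labelled), both within the histone intervals (0.23% to 41.3% and 2.55% to 31.2%). Both wild-type matches were to miR-9, a brain-enriched miRNA, on Hist1h3a and Hist1h4d. Mature sequences are from RefSeq (mm10 table, seed in capitals) and target sites from mm10 (match in capitals).
mmu-miR-9-5p: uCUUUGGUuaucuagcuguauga
Hist1h3a, coding, chr13:23762274-23762297, minus strand: gcagctagccACCAAAGccgcccg
Hist1h4d, 3′ UTR, chr13:23581933-23581961, plus strand: ttcacccaaaaACCAAAGgcccttttcag
In Hist1h4d the match ended on the first base of the stem-loop. Among other wild-type clusters of the same kind and within 5 bases of the same length, 1.74% of 2070 coding clusters and 2.34% of 1412 3′ UTR clusters held a miR-9 match. The knockout-labelled matches were to miR-15/16 on Hist1h1a and Hist1h2ai (1.84% and 2.11% of like coding clusters) and to miR-30 on Hist2h2bb (0.403%). None of these matches was followed by an A, the 8-base site that was sought. Pairing beyond base 8 of the miRNA was not counted. No histone cluster had a predicted G-quadruplex (4 guanine runs of 3 or more, joined by loops no longer than 7 bases) within 50 bases, which was found beside 1.17% (wild type) and 1.39% (knockout-labelled) of other coding clusters.

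Clusters shared by the 2 libraries were all on H1 genes. Of the wild-type histone clusters 7 of 14 (50%, 23.0% to 77.0%) overlapped a knockout-labelled cluster, and of the knockout-labelled ones 6 of 26 (23.1%, 8.97% to 43.6%) overlapped a wild-type cluster. Over all exonic clusters the shares were 35.7% and 17.6%, both within the histone intervals. Over these 7 pairs the log2 over input in wild type minus that in the knockout-labelled library ran from -2.03 (Hist1h1c start) to 1.98 (Hist1h1e start), with a median of -0.59, and it was above 0 in 2 pairs. Only for the Hist1h1e start cluster did the intervals of the 2 libraries not overlap (1.43 to 3.55 against -0.28 to 1.28). Paired clusters overlap but do not span the same bases, as with bases 4 to 64 and 22 to 56 at that start. Both wild-type tail clusters of Hist1h1e were paired with the same knockout-labelled cluster. The differences thus do not compare the libraries over equal stretches.

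A direct contrast of both IPs is given by the authors' deposited table, whose direction is not stated; wild type was taken as the numerator because the regions, and the reads recovered for them, are those of the wild-type IP. In it, 14 regions lay in histone genes. Of these, 6 of 7 H1 regions stood below 0 and 7 of 7 core regions above. The H1 regions held 17 to 78 reads in both IPs together, and of coding regions of other genes with as many reads 45.2% stood below 0, with a median of 0.14 in the authors' deposited table. The core regions held 6 to 12 reads, and of like coding regions 5.46% stood below 0, with a median of 1.19, which was also the core histone median in the authors' deposited table. The core count thus lay near the share over all such regions. Because its regions were called in the wild-type IP, regions of few reads lean towards wild type: in the authors' deposited table the median of exonic regions was 1.77 in all and 0.36 with at least 20 reads. The histone median in the authors' deposited table was 0.44, and -0.94 over the 5 histone regions with at least 20 reads.

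One histone region passed the limits for a difference, a -log10 p of at least 3 in either direction and a log2 of at least 1 in size. It was the Hist1h1d start, with 7 wild-type and 71 knockout-labelled IP reads and a value of -2.15 in the authors' deposited table (-3.52 to -1.04 from counting error). Its -log10 p, recomputed from the reads because the table lists 0 for every region below 0, was 4.21, and it compares the libraries and not the genotypes. Lower calls were 1 of 14 histone regions (0.169% of exonic regions) and higher calls 0 of 14 (2.94%). Against each library's own input the overlapping clusters at this site, of unlike length, stood at 1.77 and 2.29. The difference was -0.52 in log2 over input, and those intervals overlap.

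The remaining H1 regions did not pass. In the authors' deposited table, Hist1h1c stood at -1.75 (3 and 23 IP reads, -4.13 to -0.02), Hist1h1b at -0.62 (4 and 14) and the Hist1h1d tail at -0.51 (4 and 13). The Hist1h1e tail regions stood at -0.89 (9 and 38) and -0.94 (8 and 35) and the Hist1h1e start at 0.10 (16 and 34) in the authors' deposited table. Of these, the interval of Hist1h1c alone stayed clear of 0. For Hist1h1e the tail and start intervals overlap.

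Among core histones the highest value was that of Hist1h4d. With 8 wild-type and 2 knockout-labelled IP reads it stood at 3.19 in the authors' deposited table (0.86 to 6.46), and its -log10 p of 2.75 was short of the limit. Hist1h3a and Hist1h3g stood at 1.60 (4 and 3 reads each), Hist1h2ai and Hist1h2bc at 1.19 (6 and 6, 3 and 3) and both Hist1h2bj regions at 0.77 (3 and 4) in the authors' deposited table. The intervals of all of these include 0.

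**Figure D4:**
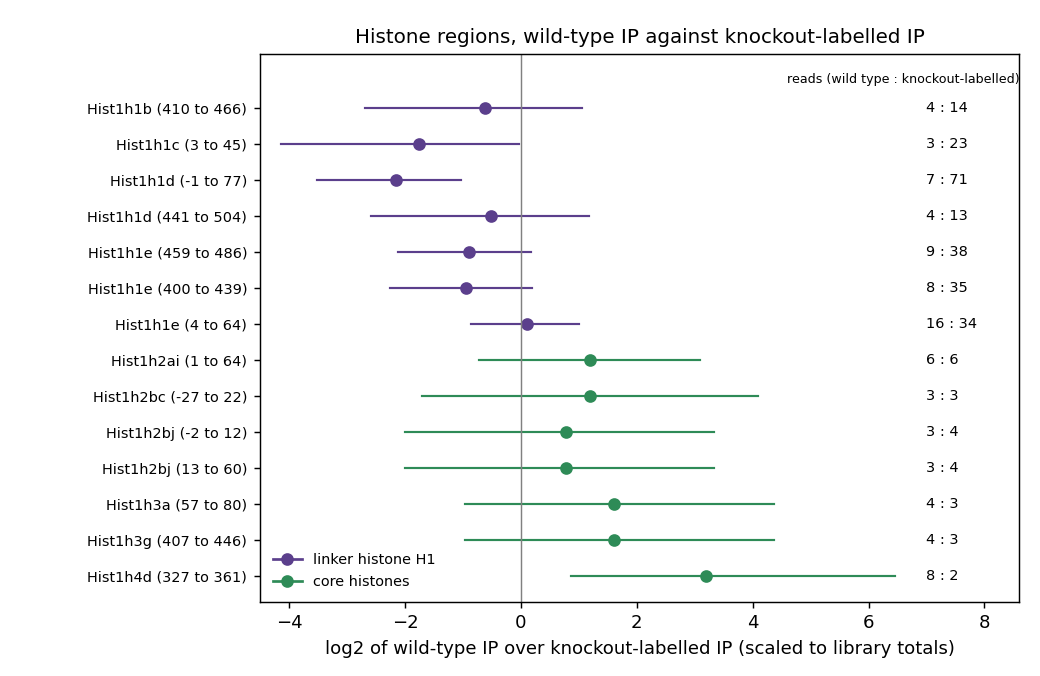
Log2 of the wild-type IP over the knockout-labelled IP in the authors' deposited table (horizontal axis) for 14 histone regions, labelled with gene and coding bases; lines are exact 95% intervals for counting error and the reads of both IPs stand at the right. H1 regions run from -2.15 to 0.10 and core regions from 0.77 to 3.19.

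Summed over all 14 regions (649 bases), 82 wild-type and 253 knockout-labelled IP reads gave a depth-scaled log2 of -0.44 (-0.81 to -0.07). H1 regions alone (371 bases, 51 and 228 reads) gave -0.97 (-1.44 to -0.53), and core regions (278 bases, 31 and 25 reads) gave 1.50 (0.69 to 2.32), beside the median of 1.19 for coding regions with as few reads. Hist1h1d weighed heavily: without it the sum over all regions was -0.06 (-0.48 to 0.35), and that over H1 regions -0.66 (-1.20 to -0.15). The abutting regions of Hist1h2bj and the tail regions of Hist1h1e count some reads in common, so these intervals are too narrow.

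Replacement histone genes were listed as genes with polyadenylated mRNAs, and the mRNA form was not checked gene by gene. Of 11 genes, 7 had wild-type clusters, 8 of 21 past the limits over input (median log2 4.25), and 9 had knockout-labelled clusters, 1 of 40 past the limits (1.52). Both medians equal those of all exonic clusters, of which 27.4% and 3.62% passed. Without H1f0 the counts past the limits were 2 of 15 and 0 of 37. H1f0, which encodes the replacement linker histone H1.0, held 74 wild-type and 56 knockout-labelled IP reads, with 6 of 6 and 1 of 3 clusters past the limits. Its largest cluster in either library lay in the 3′ UTR, with 32 IP and 2 input reads in wild type (log2 6.66) and 32 against at most 1 in the knockout-labelled library (5.94). None of the replication-dependent H1 genes had a 3′ UTR cluster. H3f3b, an H3.3 gene, held 14 and 43 reads and H2afy2, a macroH2A gene, 13 and 53, with no cluster past the limits.

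Genes that act on histone mRNA and protein were also counted, and all counts past the limits here and below are to be read against the 27.4% (wild type) and 3.62% (knockout-labelled) of all exonic clusters. Among 15 histone mRNA processing genes, 10 had wild-type clusters (1 of 22 past the limits) and 13 knockout-labelled ones (1 of 72). Srrt held 23 wild-type and 47 knockout-labelled IP reads, Sympk, a scaffold of the cleavage complex, 12 and 54, and Upf1, a helicase of histone mRNA decay, 14 and 45. Slbp, named for its binding to the stem-loop and not by its reads, had 1 cluster in each library, with 4 and 3 IP reads. Among 14 histone chaperone genes, 9 had wild-type clusters (10 of 42 past the limits) and 10 knockout-labelled ones (0 of 81), led by Atrx (135 and 231 reads), Set (14 and 87) and Nap1l1 (20 and 50).

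Markers of dividing and other cells were measured beside these. Of 23 proliferation and S phase genes, 8 had wild-type clusters (5 of 37 past the limits) and 10 knockout-labelled ones (7 of 66). Mki67, the Ki-67 proliferation antigen, had 59 and 181 IP reads and the cyclin gene Ccnd2 48 and 94. Mcm7 had 253 and 420, none of them in its coding sequence or UTRs, and without it the counts were 2 of 34 and 3 of 62. Of 13 neuron markers all had clusters in both libraries (45 of 144 and 9 of 181 past the limits). For 9 neural progenitor markers the counts were 2 of 19 and 0 of 35, for 9 astrocyte and oligodendrocyte lineage markers 4 of 11 and 1 of 27, and for 13 blood, vessel and microglia markers 4 of 6 and 1 of 11. In the authors' deposited table the medians were 1.60 for the proliferation list, 1.60 for the progenitor list and 0.62 for the neuron list, beside 1.19 for core histone regions and -0.89 for H1 regions. These medians were not matched on reads, so no order is read from them, and whether the share of dividing cells differed between the brains was not tested.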

How the data were processed

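The values come from 3 deposited tables, 1 for each IP and 1 for the series. Per the labels' protocols and the submitters' processing notes, the authors trimmed adapters with cutadapt 1.15, removed reads on repeats, mapped to mm10 with STAR 2.6.0c, removed PCR duplicates with UMI tools (given as 5.2) and called clusters with CLIPper 1.4. Each deposited table lists a -log10 p (400 at most) and a log2 ratio of depth-scaled read densities, IP over input or, in the series table, taken here as wild-type IP over knockout-labelled IP. How the series table was made, and its direction, are not given in the sources used here.

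Reads were recovered as the whole numbers (denominator at most 1000, 0 counted as 1) whose depth-scaled ratio gave the log2 and whose 2-sided binomial or chi-square test met the listed -log10 p within 1%. This held for all regions with a listed value above 0 and below 400, namely 45869 in the wild-type table, 75411 in the knockout-labelled table and 43226 in the series table, and the wild-type reads of 42616 of 42616 regions were equal in both tables. For Hist1h1c in wild type, where 0 is listed, reads were taken as the ratio whose knockout-labelled reads did not exceed the 27 of the cluster around it. Of 2000 simulated regions per table, only those with a p above 0 were scored. Reads were found right in 1937 of 1941 (wild-type table), 1774 of 1774 (knockout-labelled table) and 1743 of 1743 (series table). The simulated scores came from the formula used for recovery, so this checks the inversion and not the formula. Intervals are exact 95% binomial. Python 3.11.15, numpy 2.4.6, scipy 1.17.1 and pysam 0.24.0 were used.

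The members and lists were chosen with earlier results of these data known. Genes named have a cluster of at least 20 reads or one past a limit, with further members by class, and up to 3 genes with the most IP reads per list. miR-124 was not used in the seed search, and the sequence of 1 cluster is not reported here. Alternatives covered the limits, minimum reads, exon overlap, repeated sequence, annotation order and site rules.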

Additional observations from a re-analysis of the deposited data

Results flagged for a closer look

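Hist1h1c was set apart because its start cluster lay on opposite sides of its input in the 2 libraries, with a log2 over input of -0.14 (wild type) and 1.89 (knockout-labelled). The first rests on 3 IP and 21 input reads and the second on 27 and 14. The clusters span different bases, 3 to 45 in wild type and -8 to 124 in the knockout-labelled library. Each side is 1 library, the intervals overlap, and the difference was not tested over replicates.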

How the results depend on the processing

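No paired analysis was possible because each genotype had 1 IP library. With limits of 3 and 1 over input, the enriched histone clusters were 1 (wild type) and 3 (knockout-labelled), against 0 and 0. The count of regions lower in the wild-type IP went from 1 to 0 with limits of 5 and 2, with the p as deposited (listed as 0 below a log2 of 0) and without Hist1h1d. An overlap of at least 50% of both clusters left 21.4% of wild-type histone clusters shared. Sites of 8 bases left 0% of clusters with a match in both libraries. Summed over regions, the log2 of wild-type over knockout-labelled reads turned to 1.50 without H1 genes and moved to -0.063 without Hist1h1d; leaving out genes was chosen after seeing the data. The histone median in the authors' deposited table, 0.44, was -0.94 over regions of at least 20 reads, -0.62 over those of at least 10, 1.19 without H1 genes and 0.98 as a median of gene medians. The median over input in the knockout-labelled IP, 1.35, was 1.89 over clusters of at least 20 reads. Histone genes with a cluster numbered 10 (wild type) and 16 to 19 (knockout-labelled) under all alternatives. Core histone clusters hold 3 to 16 recovered IP reads, which leaves their intervals wide.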
